A study of Mus musculus with 7 samples.

Results

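Presentation of antigen on major histocompatibility complex (MHC) class II was followed through 10 genes in mouse alveolar macrophages, the phagocytes that live in the airspaces of the lung. The 10 were chosen by name from a table of 47643 genes: the class II transactivator Ciita, the class II chains H2-Aa, H2-Ab1 and H2-Eb1, the invariant chain Cd74, the loading chaperone chains H2-DMa, H2-DMb1 and H2-DMb2, the protease Ctss and the thiol reductase Ifi30. All 10 had a row in the table. A mean of at least 1 TPM was reached by 11397 genes, and 9 of the 10 were among them. Ciita was not.

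The study asked how loss of Siah1a and Siah2, a pair of related E3 ubiquitin ligases, alters these macrophages. There were 3 libraries labelled WT, 3 of genotype cSiah1a/2f/f::Lyz2cre (called Lyz2cre here) and 1 of genotype cSiah1a/2f/f::CD11ccre (called CD11ccre). In both deletion groups the floxed genes are cut by a Cre recombinase, driven in the first by Lyz2, which is active in macrophages and other myeloid cells, and in the second by the promoter of CD11c (Itgax), which is active in dendritic cells as well as alveolar macrophages. All 7 libraries are of lung alveolar macrophages, and the label of the WT libraries alone names a phenotype positive for CD11c, F4/80 and SiglecF. The labels used here give no age or strain, leave unsaid whether replicates were separate animals, and do not say whether WT carried a Cre allele. The p-values therefore measure only the spread between these libraries, which may be technical. Poly(A) RNA was sequenced in single-end reads of 75 bases, and the values are TPM, each gene's share of a library after division by gene length. The number of reads behind a TPM value cannot be read from it, so depth is unknown here.

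Class II molecules are pairs of an alpha and a beta chain that carry peptides from the endosome to the cell surface for CD4+ T cells. The invariant chain escorts new pairs and blocks their groove, Ctss trims it in the endosome, and H2-DM exchanges its last fragment for antigen peptides. Ciita binds no DNA itself but is recruited to the promoters of these genes by RFX, CREB and NF-Y, which sit on short elements named the X and Y boxes, and it is the usual switch for the whole set. Alveolar macrophages are known for low class II compared with dendritic cells.

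The promoter letters of 6 members are shown because class II chain and H2-DM genes are known to be driven through X and Y boxes. Ctss and Ifi30 are shown beside them. They come from the RefSeq promoter windows of GRCm38.p6 and are written 5′ to 3′ on the strand of the gene. Each starts 200 bases before the RefSeq transcription start and ends at that start or, where GENCODE M21 places an exon of the gene earlier, at the exon (H2-DMb2) or with the first box inside it (H2-DMb1). Capitals mark the X box core searched, CTAGNAAC, and the Y box, ATTGG, on either strand.
H2-Eb1 (chr17:34305667-34305866, plus strand): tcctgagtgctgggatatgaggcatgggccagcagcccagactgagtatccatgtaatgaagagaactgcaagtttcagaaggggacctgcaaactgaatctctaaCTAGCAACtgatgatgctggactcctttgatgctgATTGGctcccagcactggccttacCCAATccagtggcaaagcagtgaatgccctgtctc
H2-DMb1 (chr17:34152991-34153101, plus strand): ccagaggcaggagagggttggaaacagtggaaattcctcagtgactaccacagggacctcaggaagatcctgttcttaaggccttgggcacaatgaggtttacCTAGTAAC
H2-DMb2 (chr17:34145049-34145235, plus strand): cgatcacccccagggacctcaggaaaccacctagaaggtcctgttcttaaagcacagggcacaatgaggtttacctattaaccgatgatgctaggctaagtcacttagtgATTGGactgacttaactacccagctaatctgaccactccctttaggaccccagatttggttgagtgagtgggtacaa
H2-Aa (chr17:34287824-34288023, minus strand): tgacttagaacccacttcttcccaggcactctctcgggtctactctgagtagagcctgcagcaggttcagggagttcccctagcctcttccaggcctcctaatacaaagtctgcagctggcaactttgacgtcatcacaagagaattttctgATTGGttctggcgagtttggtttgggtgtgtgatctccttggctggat
Ctss (chr3:95526586-95526785, plus strand): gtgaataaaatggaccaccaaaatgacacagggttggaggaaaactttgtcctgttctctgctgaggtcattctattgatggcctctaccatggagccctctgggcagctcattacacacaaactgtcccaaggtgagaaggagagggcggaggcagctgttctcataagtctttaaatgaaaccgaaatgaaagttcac
Ifi30 (chr8:70766664-70766863, minus strand): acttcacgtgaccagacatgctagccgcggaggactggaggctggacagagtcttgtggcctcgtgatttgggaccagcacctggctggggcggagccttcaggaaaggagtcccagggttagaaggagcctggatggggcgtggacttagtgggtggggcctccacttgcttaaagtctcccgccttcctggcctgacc

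Of the members, 7 had a promoter window (8 windows, since H2-DMa has a pair of starts), and Ciita, Cd74 and H2-Ab1 are named only. Windows of 300 bases, from 250 before to 50 after the start, held the X box core in 3.62% of all 32851 promoters, and ATTGG in 37.4%. The X box core followed on the same strand by ATTGG, with the first bases 15 to 45 apart, stood in 35 windows, or 0.107%. Among the members, H2-Eb1 and H2-DMb1 held this pair. In H2-Eb1 the X box core began at base −94 and the Y box at −59 from the start, 35 bases apart, and in H2-DMb1 they began at −97 and −61, 36 bases apart. ATTGG alone stood in H2-DMb2 (−90), in H2-Aa (−48) and upstream of the later H2-DMa start (−198). The windows of Ctss, Ifi30 and the earlier H2-DMa start held none of these letters. Only exact letters were counted: ctggcaac in H2-Aa and ctattaac in H2-DMb2 each differ from the core by a base. The lack of a match therefore does not show that a gene lacks an X box. A match is a description of the letters, and binding was not measured.

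**Figure D1:**
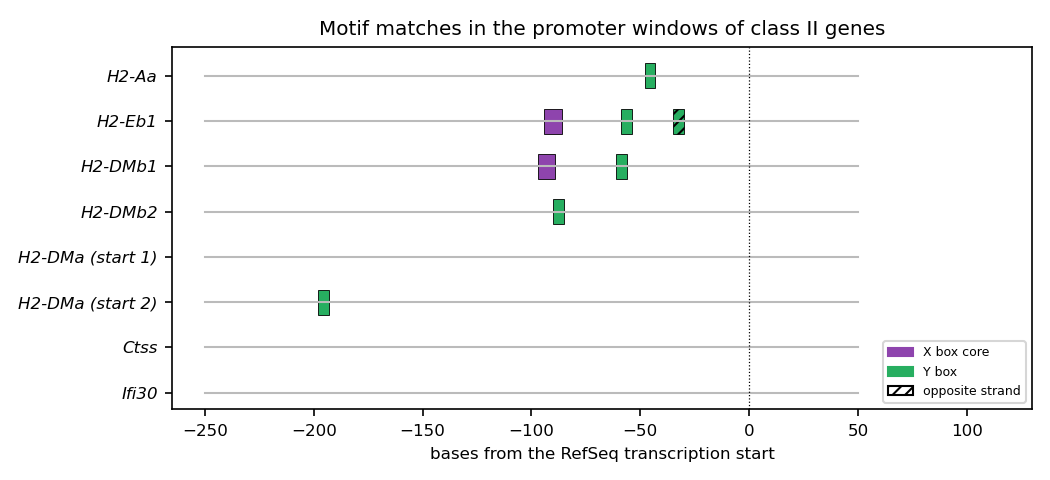
Matches of the X box core (purple) and Y box (green) in the RefSeq promoter windows of 7 members, drawn to scale in bases from the transcription start, with matches on the strand opposite the gene hatched. The X and Y boxes of H2-Eb1 and H2-DMb1 stand 35 and 36 bases apart, and Ctss and Ifi30 carry no match.

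The targeted genes followed the labels. Siah1a was 6.72 to 16.6 TPM in WT, at most 0.05 TPM in Lyz2cre and listed at 0 in CD11ccre, and Siah2 was 12.7 to 17.3, 1.45 to 1.95 and 1.21 TPM. In each library 10883 to 11518 genes were at or above 1 TPM. Genes of the mitochondrial genome took 7.54% to 9.25% of the TPM in WT, 2.67% to 4.61% in Lyz2cre and 4.23% in CD11ccre, and Chil3 with the ferritin genes Ftl1 and Fth1 took 4.90% to 5.29%, 14.4% to 16.3% and 14.0%. The median log2 fold change of all genes tested was −0.16 in Lyz2cre and −0.29 in CD11ccre, and scaling the libraries by the median of ratios brings both to within 0.01 of 0.

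In Lyz2cre against WT, 8 of the 9 members tested fell, 0 rose and 1, Ifi30, was not called (limma on log2(TPM + 1), Benjamini-Hochberg adjusted p under 0.05). The chains, Cd74 and the H2-DM genes fell between 2.56-fold and 12.2-fold, and the abundant protease Ctss fell 1.65-fold. Over all genes tested, 4.6% were called lower and 2.17% higher. The median log2 fold change of the 9 was −1.85, against −0.16 over all genes tested. All 8 that fell also lay below every WT library in all 3 Lyz2cre libraries, which held for 23.3% of all genes tested. With median-of-ratios scaling the calls over all genes split into 339 higher and 211 lower, in place of 247 and 524, and the same 8 members were called lower. Log2 fold changes were taken on log2(TPM + 1), a scale that makes changes of low genes look smaller than they are, while values written as N-fold are ratios of mean TPM. In bulk RNA, fewer cells with a transcript and less of it per cell cannot be told apart.

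**Figure D2:**
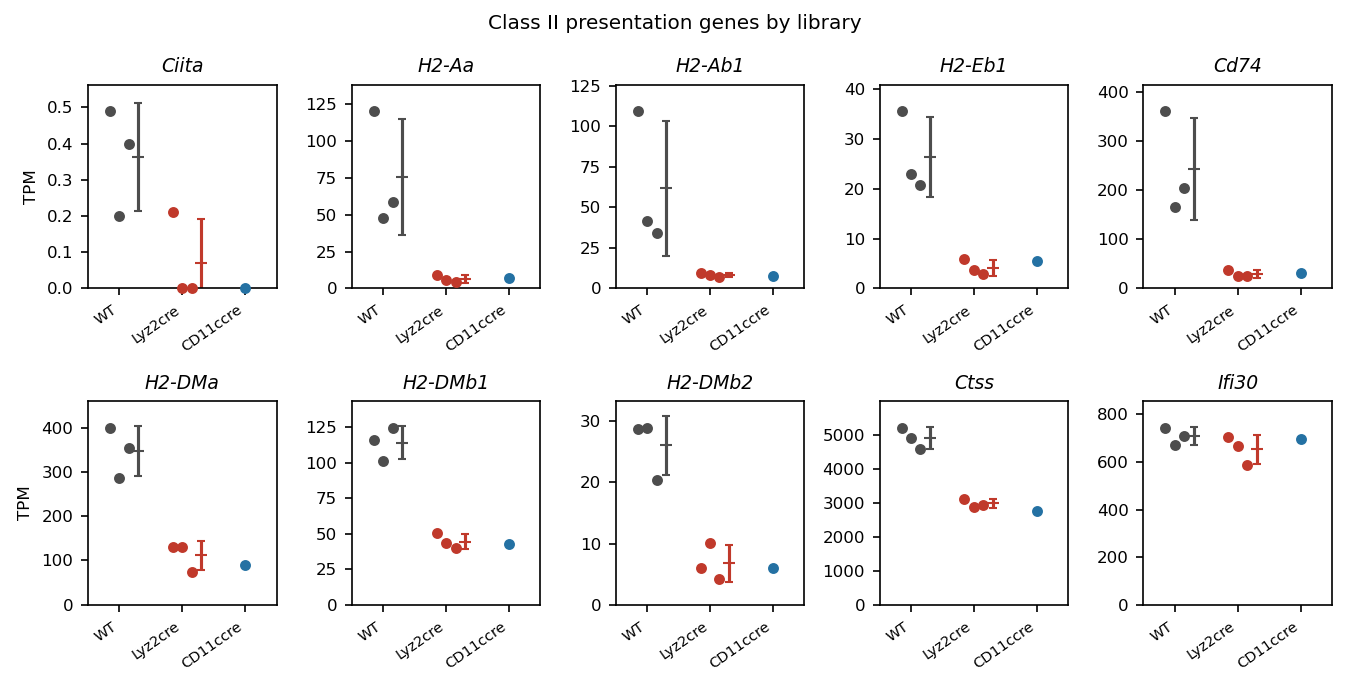
TPM of the 10 members in each library, on linear axes that start at 0, with 1 point per library and the mean ± SD beside the groups of 3. Apart from Ciita and Ifi30, each member's 3 Lyz2cre libraries and the CD11ccre library lie below all 3 WT libraries.

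Ciita, the transactivator of the set (chr16:10480059-10528418, plus strand, mm10), was near the lower end of the table in every library. It was listed at 0.49, 0.20 and 0.40 TPM in WT, at 0.21, 0 and 0 TPM in Lyz2cre and at 0 in CD11ccre. The groups overlapped, since Lyz2cre replicate 1 stood just above WT replicate 2 (exact two-sided permutation test of the means, p = 0.2, where 3 against 3 libraries cannot go below 0.1). It did not pass the filter on low values. When no filter was set, limma gave a log2 fold change of −0.35 ± 0.12 (SE) with an adjusted p of 0.248 for Lyz2cre, and −0.44 with 0.287 for CD11ccre. Of the exonic bases of Ciita, 329 are also exonic in Dexi on the opposite strand, and the strand setting of the quantification is not given in the sources used here.

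H2-Aa, the alpha chain of I-A (chr17:34282744-34287823, minus strand), stood at 120.4, 47.8 and 58.3 TPM in WT and at 9.03, 5.34 and 4.22 TPM in Lyz2cre. The lowest WT library stood far above the highest Lyz2cre library. It fell 12.2-fold, from 75.5 ± 39.2 to 6.20 ± 2.52 TPM (SD, n = 3 each), with a log2 fold change of −3.35 ± 0.38 (SE) and an adjusted p of 0.00529 in limma. Among all 11397 genes tested it took position 14 counted from the lowest log2 fold change.

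H2-Ab1, the beta chain that pairs with H2-Aa (chr17:34257689-34269419, plus strand), was 109, 41.6 and 34.1 TPM in WT against 9.58, 8.09 and 6.97 TPM in Lyz2cre. WT replicate 1 stood far above the other WT libraries, and none of the 3 came near Lyz2cre. The gene fell 7.51-fold (log2 fold change −2.58 ± 0.41 SE, adjusted p = 0.0144 in limma). The call was lost when WT replicate 2 was left out (adjusted p = 0.0603) and when Lyz2cre replicate 1, 2 or 3 was (0.0592, 0.0670 and 0.0733), while the log2 fold change stayed between −2.48 and −2.77 in these 4 fits. It also ended with no filter on low values (0.0696).

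H2-Eb1, the beta chain of I-E (chr17:34305867-34316674, plus strand), was 35.6, 22.9 and 20.7 TPM in WT against 5.93, 3.61 and 2.84 TPM in Lyz2cre. The groups were apart, and WT replicate 1 was again the highest library. It fell 6.40-fold (log2 fold change −2.43 ± 0.29 SE, adjusted p = 0.00618 in limma). The alpha chain of I-E has its row under the pseudogene name H2-Ea-ps, which was listed at 0 in all 7 libraries.

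Cd74, the invariant chain (chr18:60803848-60812652, plus strand), was 361, 165 and 205 TPM in WT against 38.0, 25.5 and 24.6 TPM in Lyz2cre. All 3 Lyz2cre libraries lay far under the lowest WT library. Cd74 fell 8.30-fold (log2 fold change −2.96 ± 0.30 SE, adjusted p = 0.00395 in limma). Ordered by TPM within a library, it was at rank 438, 877 and 686 of all genes in WT and at rank 3001, 3921 and 3870 in Lyz2cre. Cd74, H2-Aa, H2-Eb1 and H2-DMb1 were the members that passed the threshold in all 16 other settings tried for Lyz2cre, with adjusted p values of at most 0.0409.

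H2-DMa, the alpha chain of the loading chaperone (chr17:34119541-34139101, plus strand), had the highest WT mean of the H2 members, at 399.8, 287 and 354 TPM. Lyz2cre held 129, 131 and 73.7 TPM, all below WT. The gene fell 3.11-fold (log2 fold change −1.66 ± 0.24 SE, adjusted p = 0.0115 in limma). Its call ended without WT replicate 1 (0.0569), without WT replicate 3 (0.0526) and with no filter (0.0593). It shares 360 exonic bases, 10.4% of its own, with Brd2 on the opposite strand, and Brd2 stood at 152 to 155 TPM in WT against 154 to 187 TPM in Lyz2cre.

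H2-DMb1, a beta chain of the chaperone (chr17:34153072-34160230, plus strand), was 116, 101 and 125 TPM in WT against 50.25, 43.2 and 40.0 TPM in Lyz2cre. The spread within each group was small beside the gap between them. It fell 2.56-fold (log2 fold change −1.34 ± 0.14 SE, adjusted p = 0.00395 in limma).

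H2-DMb2, the neighbouring beta chain gene (chr17:34143307-34151555, plus strand), was 28.7, 28.9 and 20.4 TPM in WT against 6.0, 10.1 and 4.18 TPM in Lyz2cre. Here too the groups did not overlap, and H2-DMb2 fell 3.85-fold (log2 fold change −1.85 ± 0.30 SE, adjusted p = 0.0154 in limma). Leaving out WT replicate 1 (0.0743) or 2 (0.0799), or Lyz2cre replicate 1 (0.0730) or 3 (0.0556), ended the call, as did fitting with no filter (0.0674). H2-DMb1 and H2-DMb2 are near copies: 15.8% of the 75-base stretches of H2-DMb1 transcripts and 16.1% of those of H2-DMb2 also occur in another gene, for the most part in each other, so the split of reads between them is uncertain.

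Ctss, cathepsin S, which cleaves the invariant chain (chr3:95526786-95556403, plus strand), was the most abundant of the members, at 5208, 4914 and 4586 TPM in WT. It was 3121, 2884 and 2931 TPM in Lyz2cre, and remained among the 31 most abundant genes of every library. The groups were well apart relative to their spread. Ctss fell 1.65-fold (log2 fold change −0.72 ± 0.09 SE, adjusted p = 0.00732 in limma). The call ended without WT replicate 2 (0.0512), with no filter (0.0571) and with quantile normalization, where the log2 fold change was −0.25 (0.208).

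Ifi30, the thiol reductase GILT that opens disulfide bonds of antigens in the endosome (chr8:70762774-70766663, minus strand), was 745, 669.7 and 711 TPM in WT against 706, 667 and 586 TPM in Lyz2cre. The groups overlapped. The log2 fold change was −0.12 ± 0.11 (SE) with an adjusted p of 0.527 in limma, and the exact two-sided permutation p of the means was 0.2. Its sign changed with median-of-ratios scaling (0.061, adjusted p = 0.759). For each of the 8 members that fell, the exact permutation p of the means was 0.1, the smallest that 3 against 3 libraries can give.

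The single CD11ccre library gave values close to those of Lyz2cre. Cd74 was 30.6 TPM, H2-Aa 6.99 TPM, H2-Ab1 7.36 TPM and H2-Eb1 5.57 TPM. H2-DMa was 90.1 TPM, H2-DMb1 42.9 TPM, H2-DMb2 5.95 TPM, Ctss 2759 TPM and Ifi30 698 TPM. Ctss lay below the range of the 3 Lyz2cre libraries, and the other members lay within it. The share of all genes tested that lay within this range was not worked out. Ciita was listed at 0 in CD11ccre, the lower end of its Lyz2cre range, and Ifi30 lay within the WT range as well. Of the 9 tested, 8 lay below every WT library, which held for 50.5% of all genes tested.

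Against WT, 5 of the 9 members tested fell in CD11ccre and 0 rose, beside 1.99% of all genes called lower and 0.895% called higher. These were Cd74 (log2 fold change −2.87 ± 0.43 SE, adjusted p = 0.0237 in limma), H2-Aa (−3.14 ± 0.54, 0.0327), H2-DMa (−1.92 ± 0.34, 0.0363), H2-DMb1 (−1.39 ± 0.20, 0.0190) and Ctss (−0.83 ± 0.13, 0.0259). The values of H2-Ab1 (−2.71, 0.0553), H2-Eb1 (−2.02, 0.0507) and H2-DMb2 (−1.94, 0.0589) were of like size and missed the threshold. Ifi30 was at −0.02 (0.952), and at 0.30 with median-of-ratios scaling (0.319). This comparison uses the same WT libraries as that of Lyz2cre, so the pair of comparisons is not independent. The lone library is assumed to vary like the others. WT and CD11ccre also differed in Lyz2 (72.56 to 86.25 TPM against 50676 TPM), and whether this bears on the comparison was not tested. The count of 5 depended on the fit. It was 0 without WT replicate 2 or 3 or with limma without the trend (each with 8 at an unadjusted p under 0.05), 1 without Lyz2cre replicate 1 or 2, 2 without WT replicate 1, 3 without Lyz2cre replicate 3, and 8 with robust fitting. With median-of-ratios scaling the calls over all genes split into 152 higher and 85 lower, in place of 102 and 227, and 3 members were called.

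**Figure D3:**
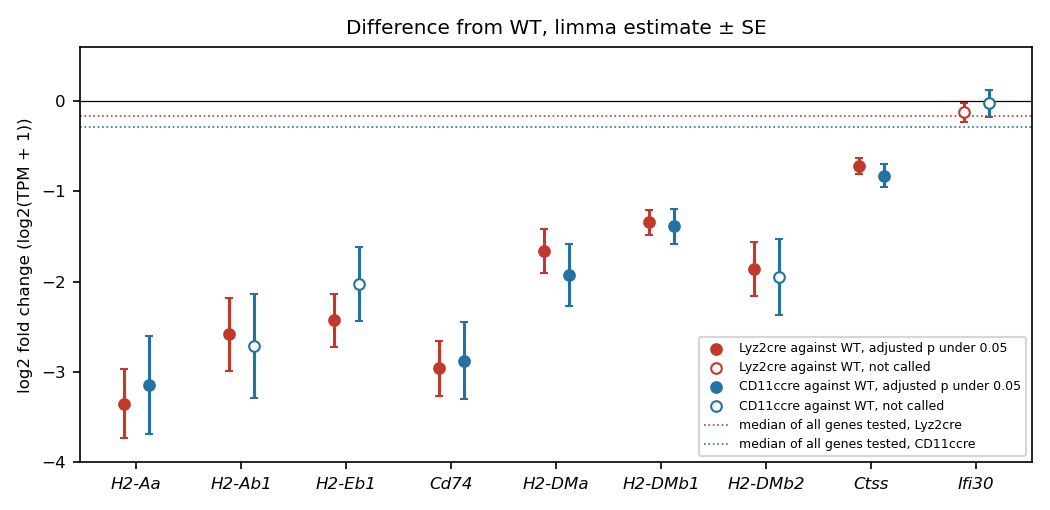
Log2 fold change against WT of the 9 members tested, ± SE, for Lyz2cre (red) and CD11ccre (blue, 1 library), with filled points for an adjusted p under 0.05 and dotted lines at the median of all genes tested. Every member except Ifi30 lies below both lines, from −0.72 for Ctss to −3.35 for H2-Aa in Lyz2cre.

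Tested against each other, CD11ccre and Lyz2cre showed no called difference in any member (0 of 9 in limma, and 0 at an unadjusted p under 0.05). Over all genes tested, 0.0702% were called lower in CD11ccre and 0.0439% higher, and 695 of 11397 were at an unadjusted p under 0.05. The differences ran from −0.26 ± 0.34 (SE, log2) for H2-DMa to 0.40 ± 0.41 for H2-Eb1, and that of Cd74 was 0.08 ± 0.43. The SE of this difference was 0.41 to 0.57 for the chains and Cd74, with 1 CD11ccre library. A difference must be well beyond its SE to be called, so even differences somewhat larger than these SEs cannot be judged. The lack of calls therefore does not show that the Cre lines are alike.

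The members also differed in how far WT libraries varied among themselves. The coefficient of variation over the 3 WT libraries was 67.2% for H2-Ab1, 52.0% for H2-Aa and 42.5% for Cd74, and 30.5% for H2-Eb1. It was 16.4% for H2-DMa, 10.3% for H2-DMb1, 6.35% for Ctss and 5.31% for Ifi30. WT replicate 1 was the highest WT library in 8 of the 10 members. Without it, Cd74 still fell (log2 fold change −2.63, adjusted p = 0.0200 in limma), as did H2-Aa (−2.96, 0.0253) and H2-Ab1 (−2.08, 0.0225).

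TPM is per length, so members can be ranked within a library. In WT the order by mean was Ctss, Ifi30, H2-DMa, Cd74, H2-DMb1, H2-Aa, H2-Ab1, H2-Eb1, H2-DMb2 and Ciita. Ranges overlapped between H2-DMa and Cd74, between H2-DMb1 and H2-Aa, and between each neighbouring pair from H2-Aa to H2-DMb2. Cd74 stood above H2-DMb1 in every WT library and below it in every Lyz2cre library and in CD11ccre. H2-Aa stood above H2-Ab1 in every WT library and below it in the other 4.

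Ratios within a library do not depend on the fixed sum. Cd74 per summed H2-Aa, H2-Ab1 and H2-Eb1 was 1.55 ± 0.238 in WT and 1.60 ± 0.135 in Lyz2cre (SD, n = 3 each), and 1.54 in CD11ccre. The groups overlapped, and their means differed by less than either SD (exact two-sided permutation p = 0.7). H2-DMa per summed chains was 1.51, 2.55 and 3.13 in WT and 5.27, 7.71 and 5.25 in Lyz2cre, with 4.53 in CD11ccre. Chaperone transcript per chain was thus higher in all 4 deletion libraries than in any WT library. H2-Ab1 per H2-Aa was 0.788 ± 0.176 in WT and 1.41 ± 0.309 in Lyz2cre, and H2-Eb1 per H2-Aa was 0.377 ± 0.0937 and 0.669 ± 0.0104 (SD, n = 3 each).

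Ctss per Cd74 was 22.2 ± 7.70 in WT and 105 ± 19.9 in Lyz2cre (SD, n = 3 each), with 90.2 in CD11ccre, so that protease transcript per invariant chain transcript was higher in each deletion library. Ifi30 per Ctss was 0.145 ± 0.00955 and 0.219 ± 0.0170 (SD, n = 3 each). Of 8 such ratios compared, 5 did not overlap between WT and Lyz2cre, and each of these 5 had an exact permutation p of 0.1, or 0.16 after Benjamini-Hochberg adjustment over the 8. Besides Cd74 per summed chains, the groups overlapped for H2-DMa per summed H2-DMb1 and H2-DMb2 (2.47 ± 0.282 and 2.14 ± 0.420, SD, n = 3 each, exact p = 0.5) and for H2-DMb2 per H2-DMb1 (exact p = 0.2). No ratio to Ciita is given because Ciita was listed at 0 in several libraries.

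Other class II genes of the locus were scarce. H2-Oa, the alpha chain of H2-DO, which restrains H2-DM, was 3.53, 3.45 and 2.48 TPM in WT against 0.74, 1.45 and 0.60 TPM in Lyz2cre, with 2.40 TPM in CD11ccre. WT and Lyz2cre did not overlap, but the log2 fold change of −1.12 had an adjusted p of 0.0743 in limma. Of the 4 genes listed, it alone was tested. H2-Ob was listed at 1.22 TPM in WT replicate 2 and at 0 elsewhere, and H2-Eb2 at 0.50 TPM in WT replicate 1 and at 0 elsewhere.

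The factors that sit on class II promoters were all transcribed in every library. Of 8 listed, the RFX subunits Rfx5, Rfxap and Rfxank, the CREB family members Creb1 and Atf1 and the NF-Y subunits Nfya, Nfyb and Nfyc, 0 were called in Lyz2cre (2 at an unadjusted p under 0.05 in limma) and 0 in CD11ccre (0 at an unadjusted p under 0.05). Their median log2 fold change in Lyz2cre was −0.16, the same as over all genes tested. Of the 11397 genes tested, 2809 had an unadjusted p under 0.05 in limma in Lyz2cre and 2540 in CD11ccre. Nfyc came closest, at 48.0, 37.4 and 45.5 TPM in WT against 28.8, 31.2 and 25.9 TPM in Lyz2cre, without overlap (log2 fold change −0.59, adjusted p = 0.0587). Rfx5, the DNA-binding subunit of RFX, was 5.40, 4.71 and 2.94 TPM in WT against 3.92, 1.69 and 2.29 TPM in Lyz2cre, with overlapping groups (−0.58, 0.322).

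Interferon gamma is the main inducer of Ciita, acting through its receptor, JAK kinases and factors such as Irf1. Of 10 tested genes of this pathway and of Ciita induction, 0 were called in Lyz2cre (3 at an unadjusted p under 0.05 in limma) and 0 in CD11ccre (2 at an unadjusted p under 0.05). Over all 11397 genes tested, 2809 in Lyz2cre and 2540 in CD11ccre were at an unadjusted p under 0.05. The median log2 fold change of the 10 was −0.08 in Lyz2cre and −0.23 in CD11ccre. The receptor chain Ifngr1 was 124 to 136 TPM in WT against 96.3 to 118 TPM in Lyz2cre, all below WT (log2 fold change −0.32, adjusted p = 0.153). Irf1 (0.09, 0.822), Irf8 (−0.08, 0.788) and the macrophage factor Spi1, which is known to drive the myeloid promoter of Ciita (−0.07, 0.788), had overlapping groups.

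Ctss apart, the endosomal proteases that were called in Lyz2cre rose. Of the 10 listed (the cathepsins Ctsl, Ctsb, Ctsd, Ctsh, Ctsz, Ctsk and Ctsf, the legumain Lgmn, the cathepsin inhibitor Cst3 and the membrane protease Sppl2a), 4 rose in Lyz2cre, 0 fell and 6 were not called. Their median log2 fold change was 0.36. Over all genes tested, 2.17% were called higher and 4.6% lower. Ctsd, an aspartic protease of lysosomes, was 5397, 4643 and 4470 TPM in WT against 14466, 17004 and 17573 TPM in Lyz2cre. The collagen-degrading Ctsk was 938, 843 and 559 TPM in WT against 3500, 3465 and 4068 TPM in Lyz2cre. Every Lyz2cre library stood far above every WT library for both. Ctsd rose 3.38-fold (adjusted p = 0.000934 in limma), Ctsk 4.72-fold (0.00228), Ctsl, which processes the invariant chain in thymic epithelium, 1.95-fold (0.00950) and Ctsb 1.60-fold (0.00910). These 4 calls held in all 16 other settings.

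In CD11ccre, Ctsd (14947 TPM, log2 fold change 1.63, adjusted p = 0.00801 in limma) and Ctsk (2987 TPM, 1.97, 0.0183) rose. The call of Ctsd ended without WT replicate 2 (0.0593) or with no filter on low values (0.0571), and that of Ctsk without WT replicate 1 (0.0510) or 2 (0.0764) or Lyz2cre replicate 1 (0.0583) or 2 (0.05003), or with limma without the trend (0.0558). Ctsl and Ctsb, at log2 fold changes of 0.72 and 0.53, were not called (0.0848 and 0.0766 in limma). Of all genes tested, 0.895% were called higher in CD11ccre. Sppl2a, which clears the last membrane fragment of Cd74, was 50.4 to 69.7 TPM in WT against 59.7 to 82.7 TPM in Lyz2cre, with overlapping groups (log2 fold change 0.17, adjusted p = 0.601).

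Of 9 tested genes of class II traffic and turnover, 2 rose in Lyz2cre, 0 fell and 7 were not called. Of all genes tested, 2.17% were called higher. The tetraspanins Cd63, at 509, 533 and 263 TPM in WT against 1089, 1160 and 1400.1 TPM in Lyz2cre, and Cd81, at 169, 129 and 162 TPM in WT against 248, 242 and 239 TPM in Lyz2cre, were the pair that rose (adjusted p = 0.0201 and 0.0258 in limma). Both calls rest on all libraries: that of Cd63 held only without WT replicate 3 among the 6 fits that left out 1 library (0.0565 to 0.0927 in the others), and that of Cd81 in none of them (0.0502 to 0.0942). Both also ended with no filter on low values (0.0873 and 0.0633), with no trend (0.0501 and 0.0697) and with the replicate block (0.0569 and 0.0540). March1, the ubiquitin ligase that removes class II from the surface, was 20.2, 12.5 and 22.7 TPM in WT against 29.5, 20.6 and 40.5 TPM in Lyz2cre, with overlapping groups (log2 fold change 0.67, adjusted p = 0.217). In CD11ccre 0 of the 9 were called (2 at an unadjusted p under 0.05 in limma, beside 2540 of all 11397 genes tested).

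Of 7 tested ligands of T cell costimulation and checkpoints, Icosl, the ligand of ICOS, fell in Lyz2cre and the other 6 were not called. Of all genes tested, 4.6% were called lower. Icosl was 32.6, 27.9 and 29.98 TPM in WT against 14.7, 15.5 and 11.7 TPM in Lyz2cre, well apart (log2 fold change −1.07 ± 0.16 SE, adjusted p = 0.0120 in limma). The call ended without WT replicate 1 (0.0539) and without Lyz2cre replicate 3 (0.0512). In CD11ccre it was 14.0 TPM (−1.05, 0.0558). Cd86 was 21.6, 15.8 and 17.0 TPM in WT against 28.4, 18.2 and 11.2 TPM in Lyz2cre, with overlapping groups (0.0036, 0.997).

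Class I presentation, which displays peptides from the cytosol and has Nlrc5 in the place of Ciita, was taken as a comparison. Of its 10 listed genes, 0 were called in Lyz2cre and 0 in CD11ccre. In each, 1 was at an unadjusted p under 0.05 in limma, beside 2809 and 2540 of the 11397 genes tested. The median log2 fold change was 0.14 in Lyz2cre and 0.07 in CD11ccre. The class I heavy chain H2-K1 was 902, 858 and 611 TPM in WT against 964, 1015 and 873 TPM in Lyz2cre, with overlapping groups (0.28, adjusted p = 0.320). B2m, the light chain, was 1924 to 2426 TPM in WT against 2017 to 2517 TPM in Lyz2cre (0.10, 0.683). Nlrc5 was 1.45, 3.57 and 2.65 TPM in WT against 4.53, 3.75 and 2.01 TPM in Lyz2cre (0.32, 0.631). The lists were not tested against each other.

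**Figure D4:**
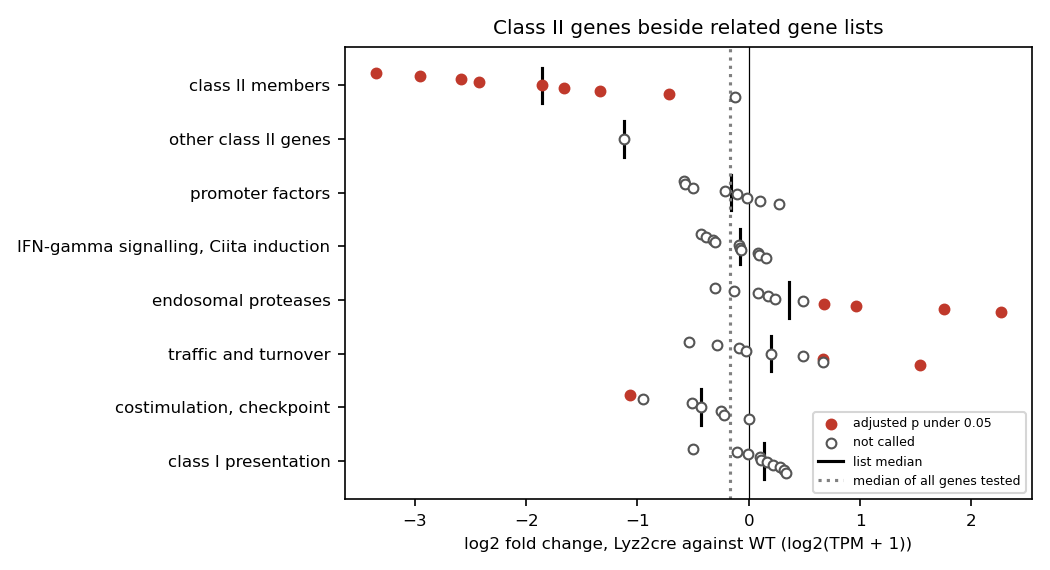
Log2 fold change of each tested gene in Lyz2cre against WT, by gene list, with filled points for an adjusted p under 0.05, black bars at list medians and a dotted line at the median of all genes tested. The 9 class II members have a median of −1.85, the class I genes of 0.14 and the endosomal proteases of 0.36.

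Dendritic cells, B cells and type 2 alveolar cells also carry class II, so their markers are given beside the result. All 15 alveolar macrophage markers averaged at least 1 TPM in each group, with summed levels of 34915 to 38287 TPM in WT, 65710 to 80848 in Lyz2cre and 73261 in CD11ccre. Chil3 held most of each sum, at 19695 to 23195 TPM in WT, 53806 to 68856 in Lyz2cre and 62200 in CD11ccre. The median of the mean levels of the 15 was 666 TPM in WT, 501 in Lyz2cre and 520 in CD11ccre. In Lyz2cre 6 of the 15 markers rose, 5 fell and 4 were not called, beside 2.17% of all genes tested called higher and 4.6% lower. Siglecf, 1 of the proteins named in the WT label, was 226, 211 and 257 TPM in WT against 107, 81.3 and 65.5 TPM in Lyz2cre (adjusted p = 0.00746 in limma), and 53.9 TPM in CD11ccre. The cells of every group thus carried the macrophage markers, at levels that differed with genotype.

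Of 13 dendritic cell markers, 4 averaged at least 1 TPM in WT, and their sum was 121 to 131 TPM in WT, 145 to 183 TPM in Lyz2cre and 191 TPM in CD11ccre. Cd24a, which other cells also express, held most of it and rose (adjusted p = 0.0304 in limma, 0.0595 to 0.113 without any 1 library of WT or Lyz2cre other than Lyz2cre replicate 1, and 0.0650, 0.0745 and 0.0647 with no filter, no trend and the replicate block). Without Cd24a, left out after the values were seen, the sum was 14.6 to 38.9 TPM in WT, 7.13 to 11.4 in Lyz2cre and 6.48 in CD11ccre. Batf3 made up most of that sum in WT replicates 1 and 2. The defining marker Flt3 was listed at 0 in every WT library, as were Itgae, Kmo and Siglech, Xcr1 was at most 0.42 TPM and Zbtb46 at most 1.31 TPM. Batf3, a factor of cross-presenting dendritic cells, was 18.1, 22.3 and 4.20 TPM in WT against 0.45, 0.54 and 1.95 TPM in Lyz2cre, and fell (adjusted p = 0.0374), a call that held in 5 of 16 other settings. It ended without any 1 library of WT or Lyz2cre other than WT replicate 3 (0.0846 to 0.125), and with a pseudocount of 5 (0.0539), no filter on low values (0.120), median-of-ratios scaling (0.0522), quantile normalization (0.0537), no trend (0.0638) or the replicate block (0.0864). Clec9a, a receptor of the same cells, was 0.51, 0.62 and 0.65 TPM in WT, lower than the 1.74, 2.14 and 1.51 TPM of Lyz2cre. In CD11ccre it was 0.60 TPM. It passed the filter on low values only through its Lyz2cre level, so its test is not used here.

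Of 10 B and plasma cell markers, 2 averaged at least 1 TPM in WT, and the sum was 6.96 to 20.5 TPM in WT, 0.42 to 3.31 TPM in Lyz2cre and 1.70 TPM in CD11ccre. Igkc, the kappa light chain, was 5.80, 4.59 and 15.1 TPM in WT against 1.18, 0 and 0.67 TPM in Lyz2cre, with no overlap. It passed the filter on low values only through its WT level, so its test is not used here. The defining marker Ms4a1 was listed at 0 in every WT library, Mzb1 at 0 in all 7, and Cd79a was at most 0.67 TPM.

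Of 10 monocyte-derived and interstitial macrophage markers, 4 averaged at least 1 TPM in WT, with sums of 711 to 775 TPM in WT, 1098 to 1154 TPM in Lyz2cre and 708 TPM in CD11ccre. Cd14 and Fcgr4 held nearly all of it, and Cd14 rose in Lyz2cre (adjusted p = 0.0116 in limma). Ccr2, the monocyte chemokine receptor, was 4.15, 2.98 and 6.85 TPM in WT against 0.58, 0.74 and 0.91 TPM in Lyz2cre, also with no overlap, and it too passed the filter only through its WT level. The 10 type 2 cell markers summed to 83.9 to 122 TPM in WT, 53.2 to 77.3 TPM in Lyz2cre and 57.5 TPM in CD11ccre, with 6 of 10 at or above 1 TPM in WT. Within them Sftpc, the surfactant protein of these cells, was 12.8 to 23.8 TPM in WT against 19.4 to 37.0 TPM in Lyz2cre with overlapping groups (adjusted p = 0.217), while Lyz1 fell (adjusted p = 0.00618). Lyz1, which macrophages can also express, was 76.9, 57.4 and 43.2 TPM in WT against 8.22, 13.1 and 14.1 TPM in Lyz2cre. Without Lyz1, left out after the values were seen, the sum was 29.3 to 45.5 TPM in WT, 44.96 to 64.3 in Lyz2cre and 48.1 in CD11ccre. The surfactant protein genes Sftpb, at 0.89 to 2.32 TPM in WT and 3.75 to 3.94 in Lyz2cre, and Sftpa1, at 1.40 to 4.61 and 4.86 to 8.44 TPM, were higher in every Lyz2cre library than in any WT library and were not called (adjusted p = 0.0932 and 0.138). The part of these other cells in the class II differences was not tested, nor was that of the mitochondrial and ferritin shares.

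**Figure D5:**
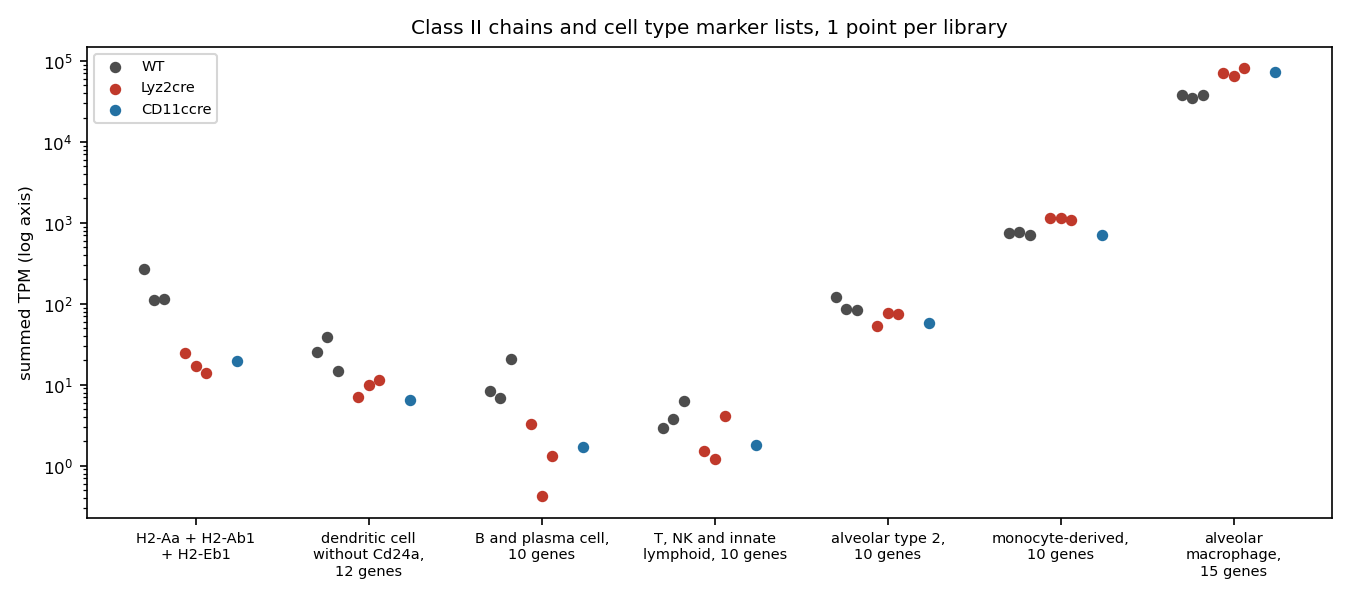
Summed TPM, on a log axis, of the 3 class II chain genes and of 6 marker lists, with 1 point per library. The chain sum is 112 to 265 TPM in WT against 14.0 to 24.5 TPM in Lyz2cre. The sums of B and plasma cell markers and of type 2 markers are also higher in WT, but that of type 2 markers without Lyz1 is not. So is the sum of dendritic cell markers without Cd24a, a gene left out after the values were seen. With Cd24a that sum is 121 to 131 TPM in WT against 145 to 183 TPM in Lyz2cre.

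The genes whose pattern was most like that of Cd74 were ranked by the mean absolute difference of log2(TPM + 1), each gene centred on its own WT mean, over the 7 libraries and 8227 protein-coding genes with at least 5 TPM in WT. H2-Aa was at position 1 (0.245) and H2-Ab1 at position 3 (0.320), with H2-Eb1 at position 9 (0.442). H2-DMb2 and H2-DMa were at positions 39 and 42, H2-DMb1 at 96, Ctss at 482 and Ifi30 at 4923. The 5 closest genes outside the set were Cxcl14, Gm10645, Wfdc10, Siah2 and Gpr155. Protein-coding genes entered by their WT level alone, so the ranking is a description and no test.

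Cxcl14, a chemokine (0.309), was 15.02, 14.95 and 9.11 TPM in WT against 1.29, 1.01 and 0.93 TPM in Lyz2cre. Gm10645 (0.328) was 4.13 to 6.50 TPM in WT and listed at 0 in the other 4 libraries. Its log2 fold change of −2.69 in Lyz2cre is therefore set by its WT level and the 1 TPM added before the log. Wfdc10 (0.338) fell from a mean of 53.1 to 8.49 TPM, and Gpr155 (0.395) fell from 28.4 to 5.0 TPM. Siah2 itself, a gene deleted by design, stood at position 6 (0.392).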

How the data were processed

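The authors deposited 1 table of TPM for 47643 genes in 7 libraries, given to 2 decimals. It was made on mm10 with cutadapt 2.3 and STAR 2.7.0d and quantified with RSEM 1.3.1, tools and build listed in the submitters' processing notes. The gene annotation is not given in the sources used here. Titles placed the libraries into WT (n = 3), Lyz2cre (n = 3) and CD11ccre (n = 1).

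The 11397 genes averaging 1 TPM or more entered 1 limma 3.58.1 fit in R 4.3.3 on log2(TPM + 1), with a coefficient per genotype and a trend of variance on the mean. It had 4 residual and 3.35 prior degrees of freedom. P-values are two-sided and Benjamini-Hochberg adjusted over every gene in the fit, and a gene was called at an adjusted p under 0.05. Means and ratios were compared by exact permutation tests in SciPy 1.17.1 under Python 3.11.15. The fit was first tested on simulated data. Gene IDs were matched to GENCODE M21 (47224 of 47643).

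Named genes were the 10 members, genes of the pathway and marker lists, and the 5 genes most like Cd74. The values of a few listed genes are not reported here. The members and lists were chosen with earlier results of these data known. Alternatives were other pseudocounts (0.1 and 5), filters, scalings, limma settings, a replicate block and leaving out each library.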

Additional observations from a re-analysis of the deposited data

How the results depend on the processing

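In Lyz2cre against WT, 8 members were called lower, and 7 or 8 under 9 of the 10 settings that left the WT and Lyz2cre libraries whole. With no filter on low values, which tests more genes, the count was 4, and leaving out 1 library gave 5 to 7. In CD11ccre against WT the count of 5 became 1 with no filter, 8 with a mean TPM of at least 5 or with robust fitting, 3 with median-of-ratios scaling or quantile normalization and 0 without the trend, and leaving out 1 library gave 0 to 3. Between CD11ccre and Lyz2cre it was 0 in all 14 other fits run, with 0 at an unadjusted p under 0.05. The 7 calls in Lyz2cre among the pathway lists became 4 to 6 when 1 library was left out and 5 to 8 otherwise. The log2 fold change of Ifi30 changed sign with median-of-ratios scaling (0.061 in Lyz2cre and 0.30 in CD11ccre) and, in CD11ccre, with quantile normalization (0.18) and without WT replicate 1 (0.016, against −0.061 without WT replicate 2). None of these values passed the threshold. Where a library is left out or a block is added, fewer residual degrees of freedom remain, and for the other changes the cause was not tested. Over all genes tested, libraries with the same replicate number did not deviate together (r across genes of −0.015, 0.043 and 0.066). Single genes can differ from this, and whether such libraries share a batch was not tested. Adding the number as a block gave Cd74 an SE of 0.15 in place of 0.30 and H2-Aa 0.19 in place of 0.38. For Ctss the SE was 0.10 in place of 0.09. With the replicate number as a block, 8 members were called lower in Lyz2cre, as without it, and 5 genes of the pathway lists in place of 7. Depth is unknown, which limits what can be said of Ciita and the other genes listed near 0.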

Other observations

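Markers of T cells, NK cells and innate lymphoid cells, some of which carry class II, were near 0. Of 10 listed, 1 averaged at least 1 TPM in WT, and Gata3 and Klrb1c were listed at 0 in all 7 libraries. Summed, they reached 2.94 to 6.22 TPM in WT, 1.20 to 4.07 in Lyz2cre and 1.82 in CD11ccre. Gzma, a granule protease of NK cells, was 2.15, 3.63 and 3.0 TPM in WT against 0, 0 and 1.14 TPM in Lyz2cre, a difference that was not called (adjusted p = 0.0731 in limma). Gzma passed the filter on low values only through its WT level.

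Lyz2, the locus that drives Cre in the Lyz2cre group, was 77.6, 72.6 and 86.2 TPM in WT against 46.6, 61.9 and 55.7 TPM in Lyz2cre, but 50676 TPM in CD11ccre. The WT libraries, which the labels do not describe as carrying Cre, thus stood near Lyz2cre and far from CD11ccre for this gene.

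Dexi, which shares exonic bases with Ciita on the opposite strand, was looked at after its values were seen. It was 17.3, 18.3 and 12.4 TPM in the WT libraries, 6.54, 10.02 and 4.79 in Lyz2cre and 7.40 in CD11ccre.

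A search for the longest run of letters shared by member promoter windows was added after the sequences were seen. The longest run, 23 bases, was shared by H2-DMb1 and H2-DMb2 and stood in 2 of the 32851 windows. Ctss and Ifi30, which held no box, shared 12 bases that stood in 3 windows. H2-Eb1 and H2-DMb1 shared 13 bases, aactgatgatgct, which begin inside the X box core of each and occur in 3 of the 32851 windows. H2-Eb1 and H2-DMb2 shared 9 bases, gatgatgct, from −85 and −117. That run of 9 stood in 90 windows, or 0.274%. The X box core as searched was not in the H2-DMb2 window.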
